A study of Mus musculus with 9 samples.

Results

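The genes of cholesterol synthesis and the targets of SREBP2, its main transcription factor, were followed in the livers of wild-type (WT) mice on 3 diets. The set held 26 genes, taken by symbol from a fixed list, out of 23337 genes in the deposited count tables, and Msmo1 stands in the files under its older symbol Sc4mol. All 26 had enough reads to be tested, as did 12587 genes in all. The groups were HFD_HDCA, a 60% high-fat diet with 0.25% hyodeoxycholic acid (HDCA, a secondary bile acid), HFD, the same 60% high-fat diet without it, and ND, a normal diet. All mice were WT, started their diet at 8 weeks of age, stayed on it for 12 weeks and were dissected in the fed state. Each diet had 3 liver libraries, numbered 1 to 3 by the sample titles and called here by diet and number, such as HFD 3. The labels give no strain, sex, cage or day and do not say that each library is a separate animal, so the p-values measure only the spread between these libraries.

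Cholesterol is built from acetyl-CoA in the cytosol and the endoplasmic reticulum, through mevalonate, the isoprenoids, squalene and lanosterol. When sterols are scarce, the escort protein SCAP carries SREBP2 to the Golgi, where it is cut, and its released part enters the nucleus and switches on most genes of the pathway. When sterols are plentiful, INSIG proteins hold SCAP and SREBP2 in the endoplasmic reticulum, so the genes of the pathway are known to move together. In liver the pathway is also known to follow feeding, insulin, bile acids and time of day.

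The libraries held 16994353 to 20509203 reads on genes, and levels are given in CPM, counts scaled to a common library size with TMM factors. Hepatocyte markers were present in full (8 of 8 in every library), with summed levels of 103133 to 117690 CPM in HFD_HDCA livers, 102145 to 118078 CPM in HFD livers and 84473 to 93405 CPM in ND livers. Most of each sum was the albumin gene Alb, at 78683 to 93785, 75902 to 96557 and 59441 to 67677 CPM in the same order. The sums therefore follow mainly that gene. In whole liver, fewer cells of a type and less RNA per cell cannot be told apart. Single libraries stood apart outside the pathway. HFD 1 differed in circadian clock genes, with the output gene Dbp at 85.8 CPM, while HFD 2 had 2.27 and HFD 3 had 1.41 CPM. HFD_HDCA 1 had 20170 CPM summed over 8 acute phase genes, while HFD_HDCA 2 had 7360 and HFD_HDCA 3 had 7638 CPM. Results that rest on these libraries are given with and without them.

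No gene of the set passed the test in any of the 3 diet comparisons, and most of its genes spread widely, and in the same order, among the HFD livers. HFD 3 was the highest of the HFD libraries for 24 of the 26 genes, against 28% of all tested genes, and HFD 1 the lowest for 22, against 36.4% of all tested genes. Of all 9 libraries HFD 3 was the highest for 19 genes and HFD 1 the lowest for 16, while HFD 3 was highest for 11.7% and HFD 1 lowest for 8.76% of all tested genes. The level in HFD 3 was at least 2 times that in HFD 1 for 16 of the 26 genes, against 4.97% of all tested genes, and for none of the 26 was it 2 times lower. In the other diets most genes agreed at a single end of the order only. HFD_HDCA 3 was the lowest HFD_HDCA library for 19 of the 26 genes (26% of all tested genes), and ND 2 the highest ND library for 17 (33.9% of all tested genes). At the other end, HFD_HDCA 1 was highest for 13 and HFD_HDCA 2 for 11 (39.5% and 33.3% of all tested genes). ND 1 was lowest for 12 and ND 3 for 9 (30.3% and 37% of all tested genes). The counts are descriptions without a test, since the genes of a library share its RNA and are not independent.

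**Figure D1:**
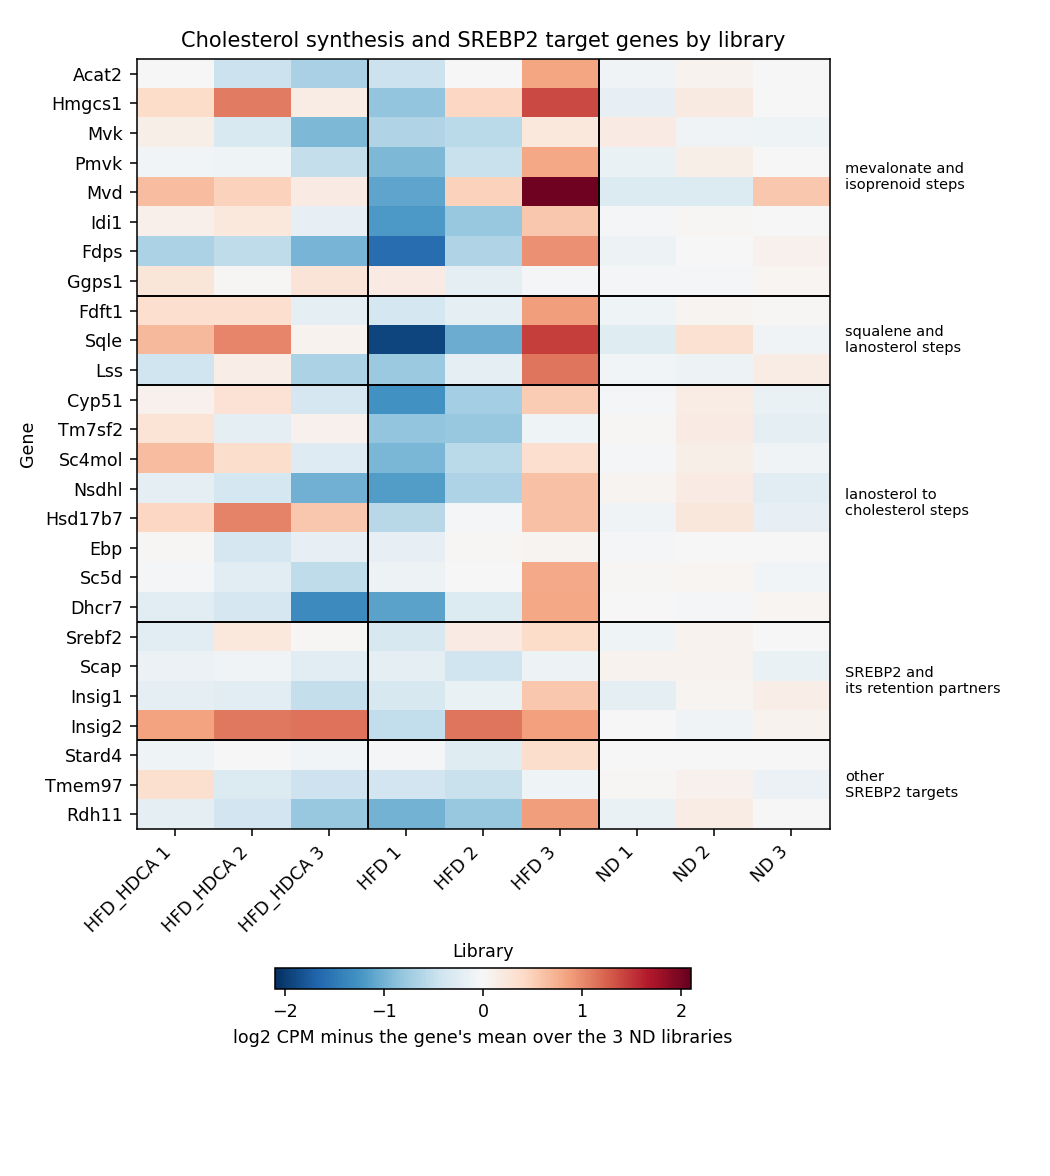
Level of each of the 26 genes (rows, grouped by role) in each library (columns), as log2 CPM minus the gene's mean over the 3 ND libraries, red for higher and blue for lower. The HFD_HDCA columns hold both colours (medians 0.06, -0.03 and -0.25, with Insig2 at 1.14 and Dhcr7 at -1.34 in HFD_HDCA 3), while the HFD 1 column is mostly blue (median -0.71), the HFD 2 column has a median of -0.27 and the HFD 3 column is mostly red (median 0.61).

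Set against the mean of the ND livers, the median gene of the set stood at 0.06, -0.03 and -0.25 on the log2 scale in HFD_HDCA 1, 2 and 3 and at -0.71, -0.27 and 0.61 in HFD 1, 2 and 3. HFD 3 lay above all 3 ND livers for 22 of the 26 genes (34% of all tested genes did so), and HFD 1 lay below all 3 for 25 of the 26 (30.5% of all tested genes). For most of these genes the HFD mean therefore averaged a liver below the ND range and a liver above it. The heat map of the 26 genes shows the HFD 1 and HFD 3 columns in opposite colours over most rows.

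The spread can be put as the standard deviation (SD) of log2 CPM over the 3 libraries of a diet. Its median over the 26 genes was 0.285 in HFD_HDCA livers, 0.678 in HFD livers and 0.119 in ND livers. Over all tested genes the same medians were 0.216, 0.189 and 0.134. Thus 19 of the 26 genes lay above the all-gene median in HFD_HDCA livers, 23 in HFD livers and 11 in ND livers. In ND livers the spread of the set was close to that of all genes, and the SD ran between 0.0131 for Stard4, a sterol carrier gene, and 0.493 for Mvd, a mevalonate pathway gene.

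**Figure D2:**
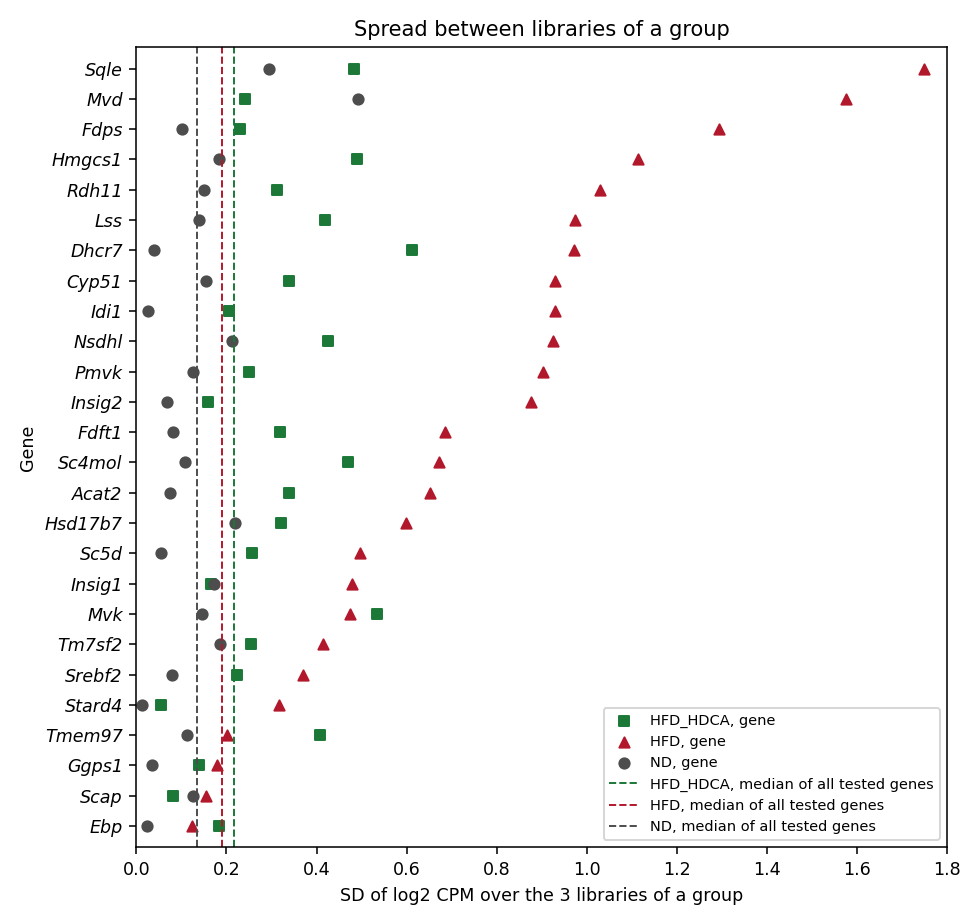
SD of log2 CPM over the 3 libraries of each diet (horizontal axis) for each of the 26 genes (rows, ordered by the HFD value), with dashed lines at the median SD of all tested genes. The HFD points run from 0.123 for Ebp to 1.75 for Sqle, and most lie to the right of the HFD line at 0.189.

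Promoter sequence was looked at because the genes moved together between the HFD livers. RefSeq promoters (GRCm38.p6, 250 bases before to 50 after a start) were found for 22 of the 26 genes, which gave 29 promoters. Fdps, Fdft1, Sqle and Stard4 had none and are not covered by the shares below. Both strands were searched for TCACNCCAC, a form of the sterol regulatory element that SREBPs bind, for its shorter form TCACNCCA, which every match of the first also contains, for CCAAT, the NF-Y box, and for GGGCGG, the Sp1 box. TCACNCCAC was in 1 of the 29 promoters (3.45%, against 1.24% of 32851 promoters in the table) and TCACNCCA in 3 (10.3%, against 4.36%). CCAAT was in 20 of the 29 (69%, against 37.4%) and GGGCGG in 22 (75.9%, against 35.7%). The promoters with TCACNCCA were those of Hmgcs1, Sc4mol and Srebf2, and their 250 bases before the start are printed here, 5′ to 3′ on the gene's strand, since they hold the sterol element beside the NF-Y box. Capitals mark TCACNCCA and CCAAT on either strand, which do not overlap in these sequences.
Hmgcs1, chr13:119690101-119690350, plus strand: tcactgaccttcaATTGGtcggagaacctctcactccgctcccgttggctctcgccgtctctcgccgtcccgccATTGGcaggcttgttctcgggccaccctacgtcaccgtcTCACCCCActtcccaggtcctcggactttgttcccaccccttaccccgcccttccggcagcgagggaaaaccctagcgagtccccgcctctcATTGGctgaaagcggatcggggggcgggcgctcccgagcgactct
Sc4mol, chr8:64733579-64733828, minus strand: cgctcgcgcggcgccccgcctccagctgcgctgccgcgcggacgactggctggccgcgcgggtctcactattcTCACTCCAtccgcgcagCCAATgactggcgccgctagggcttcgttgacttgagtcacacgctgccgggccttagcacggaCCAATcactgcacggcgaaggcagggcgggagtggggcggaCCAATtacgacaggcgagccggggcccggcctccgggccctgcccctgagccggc
Srebf2, chr15:82147019-82147268, plus strand: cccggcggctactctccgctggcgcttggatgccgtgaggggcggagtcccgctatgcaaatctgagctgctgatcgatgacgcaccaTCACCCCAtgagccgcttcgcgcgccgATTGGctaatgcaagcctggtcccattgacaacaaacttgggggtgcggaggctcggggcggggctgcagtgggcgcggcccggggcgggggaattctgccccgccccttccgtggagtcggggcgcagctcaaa
The sterol element began 137 bases before the start in Hmgcs1, 177 in Sc4mol and 162 in Srebf2, and only in Hmgcs1 was it followed by the C of the longer form. The HFD 3 level was 4.66 times the HFD 1 level for Hmgcs1, 2.48 times for Sc4mol and 1.65 times for Srebf2, while Mvd, whose window holds no TCACNCCA, had a ratio of 9.11. A match is a run of letters and not a measured binding site.

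The first steps make mevalonate and the isoprenoids, and 8 genes of the set belong there. Values in each library follow in the order of replicates 1, 2 and 3. Hmgcs1 (chr13:119690462-119708077, mm10), encoding cytosolic HMG-CoA synthase, had 353, 575 and 299 CPM in HFD_HDCA livers, 151, 365 and 704 CPM in HFD livers and 238, 307 and 267 CPM in ND livers. The HFD livers spanned a 4.66-fold range that contained every other library. Its log2 fold change was 0.01 ± 0.48 (SE) for HFD_HDCA against HFD, 0.60 ± 0.48 for HFD_HDCA against ND and 0.59 ± 0.48 for HFD against ND, with edgeR adjusted p of 0.995, 0.466 and 0.716. Mvd (chr8:122433596-122443422), encoding mevalonate diphosphate decarboxylase, had 20.1, 17.9 and 14.4 CPM in HFD_HDCA livers, 5.85, 18.03 and 53.3 CPM in HFD livers and 10.5, 10.5 and 19.0 CPM in ND livers. The lowest and the highest of the 9 libraries were both HFD livers. Its log2 fold change was -0.56 ± 0.66 for HFD_HDCA against HFD and 0.95 ± 0.66 for HFD against ND, with 95% intervals of -2.07 to 0.95 and -0.57 to 2.47. Fdps (chr3:89093588-89101967), encoding farnesyl diphosphate synthase, had 88.1, 96.1 and 70.6 CPM in HFD_HDCA livers, 45.9, 89.7 and 272 CPM in HFD livers and 129.7, 140.2 and 149 CPM in ND livers. Every HFD_HDCA liver lay below every ND liver, with a log2 fold change of -0.72 ± 0.54 between them that did not pass the test (edgeR adjusted p = 0.433).

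Acat2 (chr17:12943042-12960725), encoding the cytosolic thiolase that joins acetyl-CoA units, had 45.6, 33.6 and 28.6 CPM in HFD_HDCA livers, 33.5, 46.3 and 81.9 CPM in HFD livers and 43.7, 48.4 and 46.2 CPM in ND livers. HFD_HDCA 2 and 3 lay at or below the HFD 1 level, and the 2 groups overlapped. The log2 fold change for HFD_HDCA against HFD was -0.58 ± 0.30 (edgeR adjusted p = 0.284). Idi1, which interconverts the isoprene units, had 27.6, 29.9 and 22.6 CPM in HFD_HDCA livers, 11.05, 14.6 and 38.1 CPM in HFD livers and 25.2, 26.1 and 25.5 CPM in ND livers. HFD 1 and HFD 2 lay below all other libraries and HFD 3 above them. The kinase genes Mvk and Pmvk ran between 9.99 and 22.5 CPM and between 25.8 and 86.7 CPM over the 9 libraries, again with HFD 3 highest. Ggps1, whose enzyme makes geranylgeranyl diphosphate and leads away from sterols, was the exception among the 8. It had 9.93, 8.43 and 10.05 CPM in HFD_HDCA livers, 9.37, 7.27 and 8.18 CPM in HFD livers and 8.22, 8.18 and 8.56 CPM in ND livers, with the HFD libraries in a different order.

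The middle steps, from farnesyl diphosphate to lanosterol, are run by Fdft1, Sqle and Lss. Sqle (chr15:59315092-59331193), encoding squalene epoxidase, a rate-limiting enzyme of the pathway, had 66.6, 84.3 and 43.4 CPM in HFD_HDCA livers, 10.8, 20.1 and 114 CPM in HFD livers and 34.9, 52.0 and 39.3 CPM in ND livers. HFD 3 stood 10.5 times above HFD 1, the widest range within a diet in the set, and the HFD_HDCA livers lay between them. The log2 fold change was 0.43 ± 0.75 for HFD_HDCA against HFD, 0.62 ± 0.75 for HFD_HDCA against ND and 0.19 ± 0.75 for HFD against ND. The 95% interval of the HFD_HDCA against HFD change ran from -1.29 to 2.15, so these libraries bound it only within those limits. Lss (chr10:76531627-76553934), encoding lanosterol synthase, had 30.0, 44.6 and 25.2 CPM in HFD_HDCA livers, 23.4, 35.4 and 87.9 CPM in HFD livers and 38.9, 37.3 and 44.9 CPM in ND livers. HFD 3 was again highest and HFD 1 lowest, and HFD_HDCA 3 was close to HFD 1. Fdft1, encoding squalene synthase, ran between 65.1 CPM in HFD 1 and 156 CPM in HFD 3.

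**Figure D3:**
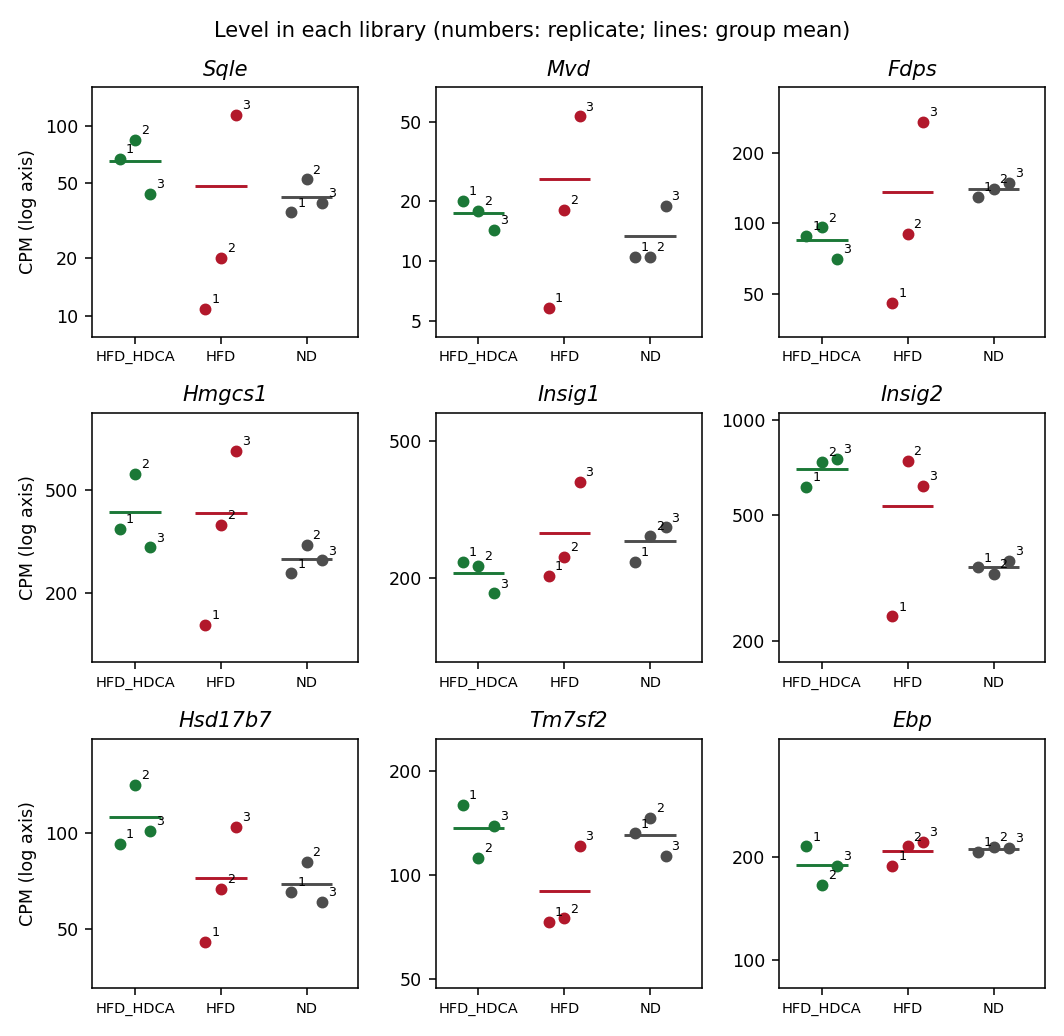
Level in each library (CPM, log axis, points numbered by replicate) and group mean (lines) for 9 genes of the set, with HFD_HDCA left of HFD and ND. Sqle, Mvd, Fdps and Hmgcs1 show HFD 1 low and HFD 3 high, while Insig2 shows HFD 1 low with HFD 2 and HFD 3 near the HFD_HDCA level, and Ebp is nearly level.

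The late steps turn lanosterol into cholesterol and hold 8 genes of the set. Tm7sf2 (chr19:6062821-6067850), encoding a sterol reductase that acts after Cyp51, had 159, 112 and 139 CPM in HFD_HDCA livers, 73.2, 74.8 and 122 CPM in HFD livers and 132, 147 and 113 CPM in ND livers. HFD 1 and HFD 2 lay below all other libraries and HFD 3 within the range of the rest. Its log2 fold change was 0.60 ± 0.21 for HFD_HDCA against HFD (unadjusted p = 0.0155, edgeR adjusted p = 0.133) and -0.54 ± 0.21 for HFD against ND (unadjusted p = 0.0266, edgeR adjusted p = 0.346). Hsd17b7 (chr1:169949537-169969205), encoding a keto-sterol reductase, had 92.8, 142 and 102 CPM in HFD_HDCA livers, 45.6, 66.8 and 105 CPM in HFD livers and 65.5, 81.2 and 60.6 CPM in ND livers. All 3 HFD_HDCA livers lay above all 3 ND livers, and HFD 3 reached their level. The log2 fold change was 0.63 ± 0.28 for HFD_HDCA against HFD (edgeR adjusted p = 0.229) and 0.70 ± 0.28 for HFD_HDCA against ND (unadjusted p = 0.0344, edgeR adjusted p = 0.157).

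Sc5d, encoding lathosterol oxidase, had 493, 431 and 346 CPM in HFD_HDCA livers, 468, 500.4 and 875 CPM in HFD livers and 511, 519 and 482 CPM in ND livers. Its log2 fold change for HFD_HDCA against HFD was -0.54 ± 0.23 (unadjusted p = 0.0389, edgeR adjusted p = 0.201), and HFD 3 alone lay above the ND range. Dhcr7, encoding dehydrocholesterol reductase, which makes cholesterol itself, had 58.3, 53.2 and 26.7 CPM in HFD_HDCA livers, 31.1, 55.7 and 119 CPM in HFD livers and 68.2, 65.9 and 69.5 CPM in ND livers. The HFD_HDCA livers all lay below the ND livers, with a log2 fold change of -0.56 ± 0.46 (edgeR adjusted p = 0.474). Sc4mol, encoding a methylsterol oxidase, had 258, 212 and 136 CPM in HFD_HDCA livers, 84.1, 110.2 and 208 CPM in HFD livers and 159, 178 and 155 CPM in ND livers. The lanosterol demethylase gene Cyp51 and the sterol dehydrogenase gene Nsdhl had their lowest library in HFD 1, at 64.0 and 33.7 CPM, and their highest in HFD 3, at 226 and 118 CPM. Ebp, encoding a sterol isomerase, varied least in HFD livers, with 214, 166 and 188 CPM in HFD_HDCA livers, 188, 214 and 220.1 CPM in HFD livers and 207, 213 and 212 CPM in ND livers.

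SREBP2 and the proteins that carry or hold it make up 4 genes. Srebf2 (chr15:82147269-82204960), encoding SREBP2, had 41.9, 57.1 and 49.9 CPM in HFD_HDCA livers, 38.9, 55.0 and 64.3 CPM in HFD livers and 46.3, 51.7 and 49.3 CPM in ND livers. HFD 1 was again lowest and HFD 3 highest, but the 1.65-fold range was narrower than that of most enzymes, and the 3 groups overlapped. Its log2 fold change was -0.09 ± 0.18 for HFD_HDCA against HFD, with a 95% interval of -0.48 to 0.30. Scap (chr9:110333293-110384946) had 127, 132 and 118 CPM in HFD_HDCA livers, 122, 105 and 129 CPM in HFD livers and 146, 147 and 126 CPM in ND livers. Its levels varied little, and HFD 3 was only 1.05 times HFD 1. Insig1 (chr5:28071412-28078662), itself a known SREBP target, had 222, 217 and 180.4 CPM in HFD_HDCA livers, 203, 230.4 and 379.7 CPM in HFD livers and 223, 266 and 280.4 CPM in ND livers. HFD 3 stood above all other libraries, and each HFD_HDCA liver lay below each ND liver, HFD_HDCA 1 by about 1 CPM. The log2 fold change was -0.39 ± 0.22 for HFD_HDCA against HFD (edgeR adjusted p = 0.316) and -0.31 ± 0.22 for HFD_HDCA against ND (edgeR adjusted p = 0.382).

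Insig2 (chr1:121304353-121332580), whose product also retains SCAP and whose liver transcript in mouse is known to be repressed by insulin, followed another pattern. It had 614, 737 and 750.4 CPM in HFD_HDCA livers, 239, 740.5 and 616 CPM in HFD livers and 341, 325 and 357 CPM in ND livers. The HFD_HDCA livers all lay above the ND livers, HFD 2 and HFD 3 were at the HFD_HDCA level, and HFD 1 was below the ND range. The log2 fold change for HFD_HDCA against ND was 1.04 ± 0.33 (95% interval 0.29 to 1.78), the smallest p in the set, yet it did not pass the test (unadjusted p = 0.0114, edgeR adjusted p = 0.0941). It was 0.40 ± 0.33 for HFD_HDCA against HFD (edgeR adjusted p = 0.509) and 0.64 ± 0.33 for HFD against ND (edgeR adjusted p = 0.519). Without HFD 1 the HFD_HDCA against ND value was 1.04 (edgeR adjusted p = 0.00252) and the HFD against ND value 0.99 (0.0102), both past the threshold, and HFD_HDCA against HFD was 0.05 (0.874). That fit called 8.02% of all tested genes for HFD_HDCA against ND and 1.77% for HFD against ND. In a fit of the 6 HFD_HDCA and ND libraries alone, which called 8.1% of all tested genes, the first value was 1.04 (edgeR adjusted p = 0.00299), and DESeq2 on all libraries gave 1.02 (adjusted p = 0.0137). No fit that left out any other single library called Insig2 in any comparison, and limma on FPKM did not call it. Without HFD 3, HFD_HDCA against ND stayed at 1.04 with an edgeR adjusted p of 0.11. HFD 1 is not among the libraries of that comparison and enters it only through the shared fit.

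The other SREBP2 targets of the set are Stard4, Tmem97 and Rdh11. Rdh11 (chr12:79175551-79191819), encoding a retinol dehydrogenase, had 38.0, 32.8 and 24.8 CPM in HFD_HDCA livers, 21.7, 24.7 and 79.8 CPM in HFD livers and 39.0, 48.0 and 42.9 CPM in ND livers. It behaved like the enzymes of the pathway, with HFD 3 3.67 times HFD 1, and the HFD_HDCA livers lay below the ND livers (log2 fold change -0.44 ± 0.46, edgeR adjusted p = 0.575). Tmem97 (chr11:78541817-78550735), encoding a membrane protein linked to lysosomal cholesterol export, had 58.5, 38.0 and 34.2 CPM in HFD_HDCA livers, 34.9, 33.5 and 43.5 CPM in HFD livers and 47.4, 49.7 and 42.6 CPM in ND livers. HFD_HDCA 1 was its highest library, and the groups overlapped. Stard4, encoding a cytosolic sterol carrier, spanned 69.2 to 74.7 CPM in HFD_HDCA livers, 62.1 to 95.8 CPM in HFD livers and 73.6 to 74.7 CPM in ND livers.

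For HFD_HDCA against HFD, the comparison that asks what HDCA adds to the high-fat diet, edgeR's quasi-likelihood test with Benjamini-Hochberg adjustment called 0 of 26 genes, against 3.4% of all tested genes. At an unadjusted p under 0.05 there were 1 higher and 1 lower, against 11.6% and 10.4% of all tested genes, and DESeq2 and limma on FPKM also called 0. For HFD_HDCA against ND edgeR called 0 of 26, against 6.47% of all tested genes, with 2 higher and 0 lower at an unadjusted p under 0.05 (14.8% and 11.4% of all tested genes). DESeq2 called 1 (10.2% of all genes it tested) and limma on FPKM 0. Its libraries did not overlap for 2 genes that were higher, Hsd17b7 and Insig2, and 4 that were lower, Fdps, Dhcr7, Insig1 and Rdh11, against 17.8% and 16.1% of all tested genes. For HFD against ND edgeR called 0 of 26, against 0.953% of all tested genes, with 0 higher and 1 lower at an unadjusted p under 0.05 (6.67% and 4.83% of all tested genes), and DESeq2 and limma on FPKM called 0. The libraries overlapped for all 26 genes in HFD_HDCA against HFD and in HFD against ND, where 22.4% and 20.1% of all tested genes did not overlap.

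The median log2 fold change of the 26 genes was -0.06 for HFD_HDCA against HFD, -0.07 for HFD_HDCA against ND and 0.01 for HFD against ND. Over all tested genes the medians were -0.00, 0.03 and 0.02. Positive and negative values numbered 11 and 15, 12 and 14, and 13 and 13 in the same order of comparisons. The lowest adjusted p over the 26 genes was 0.133, 0.0941 and 0.346. These comparisons share libraries, HFD_HDCA against HFD and HFD against ND the HFD livers and the others the HFD_HDCA or the ND livers, so their values are not independent of each other. A permutation of 3 libraries against 3 cannot give an exact p below 0.1, so the tests rest on the spread that edgeR pools over genes and diets.

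**Figure D4:**
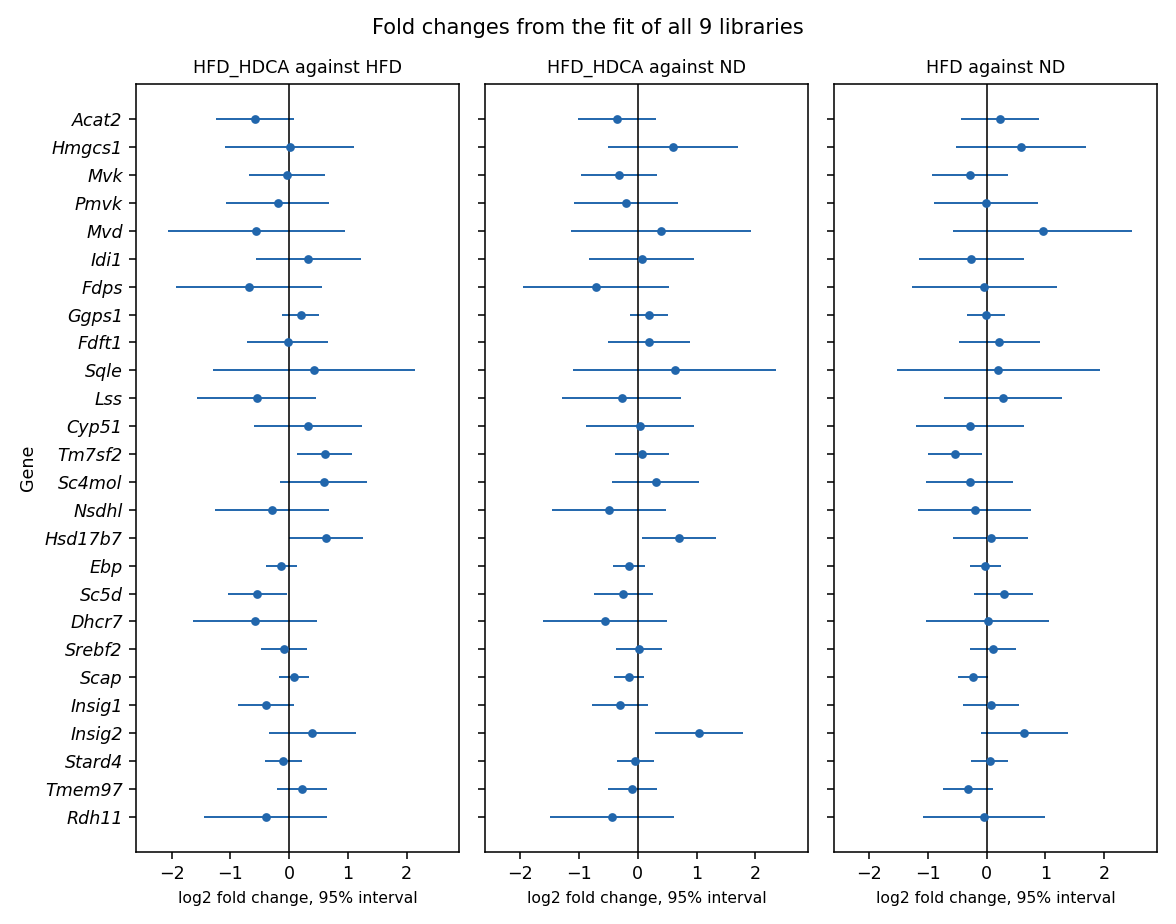
Log2 fold change with its 95% interval (horizontal axis) for each of the 26 genes (rows) in the 3 comparisons, from edgeR's fit of all 9 libraries. Most intervals cross 0, those of Sqle are the widest in each comparison (-1.29 to 2.15 for HFD_HDCA against HFD), and Insig2 for HFD_HDCA against ND lies at 1.04 with an interval of 0.29 to 1.78.

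The direction of the set in the comparisons with HFD depended on a single liver. Without HFD 3, 22 of the 26 genes had a positive HFD_HDCA against HFD value, with a median of 0.38, and 9 were higher and 0 lower at an unadjusted p under 0.05 (8.29% of all tested genes were higher). In that fit Idi1 (1.06, edgeR adjusted p = 0.0217), Sqle (2.07, 0.0359) and Tm7sf2 (0.88, 0.0442) passed the test, against 1.2% of all tested genes. Without HFD 1, 18 of the 26 had a negative value instead, with a median of -0.22, and 6 were lower and 0 higher at an unadjusted p under 0.05 (12.1% of all tested genes were lower), while none passed the test after adjustment (5.26% of all tested genes did). For HFD against ND, leaving out HFD 3 gave 25 negative values of 26 with a median of -0.37, of which 11 had an unadjusted p under 0.05 (4.47% of all tested genes were lower) and 0 passed after adjustment (0.267% of all tested genes did). Leaving out HFD 1 gave 20 positive values with a median of 0.27, and Insig2 passed the test. HFD 3 was the highest and HFD 1 the lowest HFD library for most of these genes. Leaving either out therefore moves the set in a direction known beforehand, and the p-values of these fits are descriptions only.

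**Figure D5:**
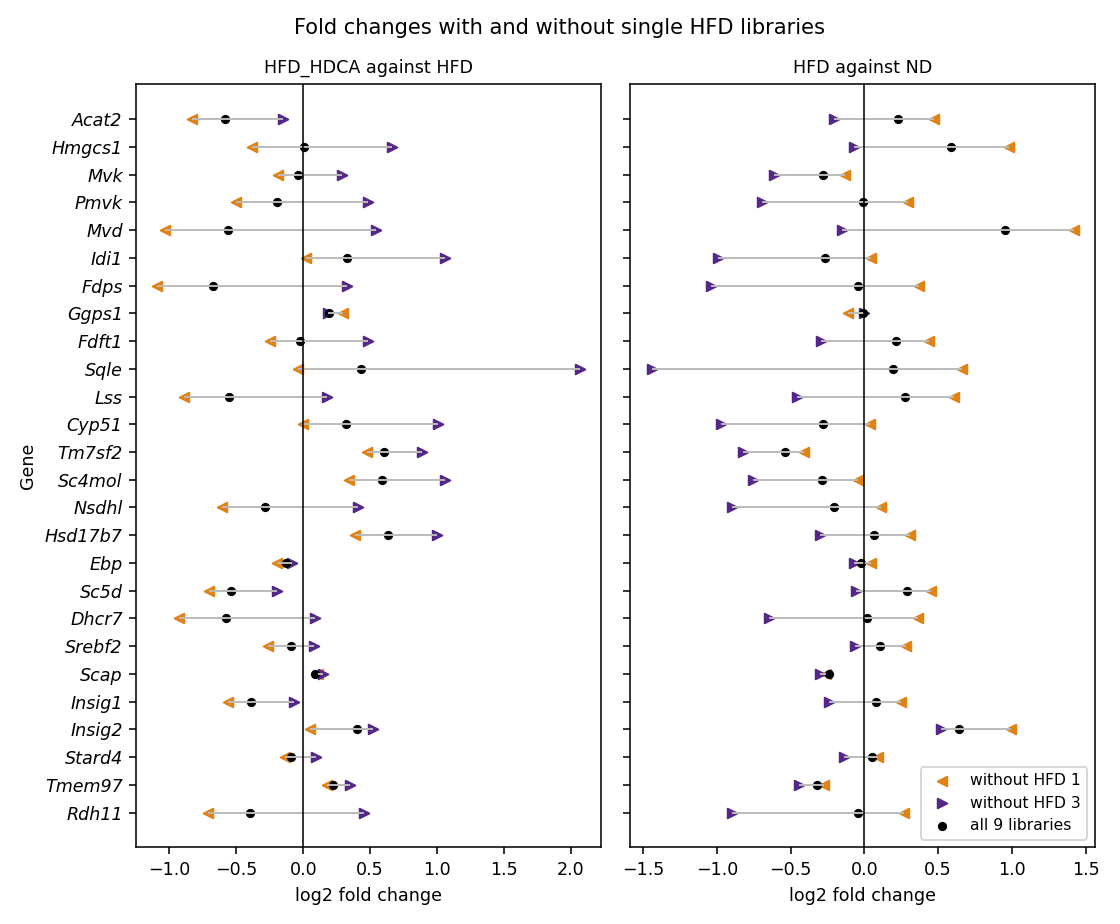
Log2 fold change of each of the 26 genes (rows) for HFD_HDCA against HFD and for HFD against ND with all 9 libraries (dots), without HFD 1 and without HFD 3 (triangles). Leaving out HFD 3 moves Sqle to 2.07 and leaving out HFD 1 moves it to -0.04 in HFD_HDCA against HFD, and Ggps1, Scap and Ebp move little.

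Other measures differed between the HFD livers as well. The 10 clock genes summed to 348, 307 and 352 CPM in HFD_HDCA livers, 637, 288 and 283 CPM in HFD livers and 444, 379 and 322 CPM in ND livers. Within that list Dbp was higher in HFD 1, at 85.8 CPM, than in HFD 2 and HFD 3, at 2.27 and 1.41 CPM. The core clock gene Arntl was lower there, with 4.71 CPM in HFD 1, against 41.1 and 37.6 CPM in HFD 2 and HFD 3. The sum thus adds genes that moved in opposite directions and does not measure clock phase. Summed over 8 macrophage markers, all detected in every library, the level was 666, 434 and 332 CPM in HFD_HDCA livers, 459, 133 and 891 CPM in HFD livers and 426, 450 and 379 CPM in ND livers. Over 8 endothelial markers, all detected in every library, it was 289.9, 327 and 281 CPM in HFD_HDCA livers, 315, 181 and 368 CPM in HFD livers and 358, 359.5 and 321 CPM in ND livers. HFD 3 was the highest of the HFD livers in both lists and HFD 2 the lowest. In HFD 1, 2 and 3, stellate cell markers summed to 386, 424.33 and 424.65 CPM and cholangiocyte markers to 64.8, 104 and 80.6 CPM. Hepatocyte markers summed to 102145, 118078 and 117960 CPM. These further sums were lowest in HFD 1, as were most genes of the set. Most of each hepatocyte sum was Alb, at 75902, 92031 and 96557 CPM in HFD 1, 2 and 3. The rest of the hepatocyte list was not lowest in HFD 1. Lymphocyte markers were highest in HFD 1, at 4.71, 4.14 and 3.65 CPM in HFD 1, 2 and 3. The part of clock phase, of macrophages and of other cells in the spread of the set was not tested. HFD 3 was the highest HFD library for 24 genes both with library size alone and in the deposited FPKM values, and HFD 1 the lowest for 19 and for 20.

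Levels between genes can be compared only per length, in FPKM, fragments scaled by transcript length and library size, as the authors' Cufflinks tables give them. In HFD_HDCA livers Insig2 led at 254 ± 42.6 FPKM (SD, n = 3 in this and the other groups), ahead of Sc5d at 141 ± 22.4 FPKM. In HFD livers Sc5d had 222 ± 85.3 FPKM and Insig2 211 ± 96.6 FPKM, which did not differ beyond their spread. In ND livers Sc5d was highest, at 168 ± 10.7 FPKM, followed by Insig2 at 127 ± 1.497 FPKM and Fdps at 109.9 ± 7.66 FPKM. The next were Insig1 at 97.3 ± 11.2 FPKM and Ebp at 93.2 ± 2.62 FPKM, and Fdps and Insig1, and Insig1 and Ebp, lay within their summed spread. Lowest in ND livers were Ggps1 at 2.80 ± 0.073 FPKM, Mvd at 5.75 ± 1.93 FPKM, Srebf2 at 7.66 ± 0.513 FPKM and Mvk at 8.91 ± 0.928 FPKM, with Mvd and Srebf2, and Srebf2 and Mvk, within their summed spread. Acat2 varied less in FPKM than in CPM within HFD livers, with 62.1, 72.7 and 85.0 FPKM.

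Reads of some genes could be shared with other loci, which leaves their levels less certain. The Acat2 transcript matched that of Acat3 over 1477 bases at 97.7% identity. Fdps matched 4 processed pseudogenes and the overlapping Gm43738, and Idi1, Fdft1, Ggps1 and Tmem97 each matched at least 1 processed pseudogene at 95% identity or more. Fdft1 overlapped Ctsb on the opposite strand over 774 bases, and Acat2, Ggps1, Hmgcs1, Idi1 and Scap also overlapped genes on the other strand. How the counting treated strand is not given in the sources used here beyond the word antisense.

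A second list held 40 genes around the pathway, from acetyl-CoA supply and isoprenoid side branches to SREBP processing, degradation, uptake and storage, and all 40 were tested. For HFD_HDCA against HFD 1 rose and 1 fell, for HFD_HDCA against ND 1 rose and 1 fell, and for HFD against ND 0 passed. Of all tested genes 1.67% rose and 1.73% fell for HFD_HDCA against HFD, and 3.65% rose and 2.82% fell for HFD_HDCA against ND. The gene that rose was Nceh1, encoding a neutral cholesterol ester hydrolase, with 69.4, 91.1 and 104 CPM in HFD_HDCA livers, 31.8, 38.8 and 36.4 CPM in HFD livers and 32.2, 35.1 and 29.0 CPM in ND livers. No HFD_HDCA liver overlapped the others, and the log2 fold change was 1.303 ± 0.15 against HFD (edgeR adjusted p = 0.00343) and 1.46 ± 0.15 against ND (edgeR adjusted p = 0.00142). The gene that fell was Cyb5b, encoding a cytochrome b5 that is an electron carrier of membranes, with 377, 419 and 435 CPM in HFD_HDCA livers, 631, 765 and 819 CPM in HFD livers and 739, 768 and 782 CPM in ND livers. Again the HFD_HDCA livers stood apart, with -0.85 ± 0.13 against HFD (edgeR adjusted p = 0.0101) and -0.89 ± 0.13 against ND (edgeR adjusted p = 0.00475). In both genes HFD 3 was less than 2 times HFD 1.

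At an unadjusted p under 0.05, 3 of the 40 genes were higher and 8 lower for HFD_HDCA against HFD, 4 higher and 6 lower for HFD_HDCA against ND, and 1 higher and 0 lower for HFD against ND. Of all tested genes 11.6% were higher and 10.4% lower for HFD_HDCA against HFD, 14.8% and 11.4% for HFD_HDCA against ND, and 6.67% and 4.83% for HFD against ND. Aacs, encoding acetoacetyl-CoA synthetase, which feeds ketone bodies into sterol synthesis, had 8.78, 15.6 and 10.6 CPM in HFD_HDCA livers, 29.0, 83.9 and 157 CPM in HFD livers and 23.7, 20.3 and 55.0 CPM in ND livers. Its log2 fold change was -2.94 ± 0.65 for HFD_HDCA against HFD (edgeR adjusted p = 0.0513) and 1.45 ± 0.61 for HFD against ND (edgeR adjusted p = 0.41). Acly, encoding ATP citrate lyase, the source of cytosolic acetyl-CoA, had 128, 132 and 88.0 CPM in HFD_HDCA livers, 216, 286 and 716 CPM in HFD livers and 262, 207 and 266 CPM in ND livers. The HFD_HDCA livers lay below all others in both genes, and Acly had -1.81 ± 0.41 for HFD_HDCA against HFD (edgeR adjusted p = 0.052). Without HFD 1 both passed the test for HFD_HDCA against HFD, Aacs at -3.36 (edgeR adjusted p = 0.0151) and Acly at -2.11 (0.0176), and without HFD 3 Acly did so at -1.12 (0.0362). The fit without HFD 1 called 5.26% of all tested genes and that without HFD 3 called 1.2%. DESeq2 called Aacs and Acly as well, Aacs at adjusted p = 0.000425 and Acly at 0.00513, in a fit that called 8.39% of all genes it tested. Osbp, encoding an oxysterol-binding protein, had -0.52 ± 0.17 for HFD_HDCA against ND (edgeR adjusted p = 0.095), which passed without HFD 1 (-0.53, 0.0465). Lipa, the lysosomal acid lipase gene, had 0.39 ± 0.19 for HFD against ND (edgeR adjusted p = 0.472) and passed without HFD 1 (0.60, 0.0454). The fit without HFD 1 called 8.02% of all tested genes for HFD_HDCA against ND and 1.77% for HFD against ND. HFD 1 was the lowest HFD library for Aacs, Acly and Lipa. Leaving it out moves their values in a direction known beforehand, so the p-values of the fits without single livers are descriptions only.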

How the data were processed

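Liver RNA of WT mice on the 3 diets was sequenced, 3 libraries a diet. Per the labels' protocols, RNA was taken with a lipid tissue kit and made into TruSeq RNA libraries. The deposited gene tables named for HTSeq hold whole-number counts, which the authors left unscaled. Per the file headers, the authors' Cufflinks tables hold FPKM. Per the submitters' processing notes the tools included Cufflinks 2.0.2 and TopHat 1.3.2, and the build was mm10. The HTSeq version, its strand setting and the annotation are not given in the sources used here. The tables had 0 columns of other samples, and 5 read classes that name no gene, kept out of every step, took 30.0 to 31.6% of reads in HFD_HDCA, 27.9 to 30.9% in HFD and 32.6 to 36.1% in ND files. No pair of libraries agreed within counting noise (chi-square per degree of freedom 11.7 or more within a diet).

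Tests were run with edgeR 4.0.16 under R 4.3.3: filterByExpr with a minimum count of 10, TMM scaling, a single fit of all 9 libraries and robust quasi-likelihood F tests, two-sided. Benjamini-Hochberg adjustment ran over all tested genes of a comparison, and a gene was called at an adjusted p under 0.05. Log2 CPM used a prior count of 3. A count of 0 allows up to 3 counts, 0.152 to 0.182 CPM. Without molecular identifiers, that limit speaks for counting error only. Alternatives were DESeq2 1.42.0, limma 3.58.1 on log2(FPKM + 0.1) or log2(FPKM + 1), other scaling and filters, a replicate block, and fits that left out libraries. The scripts were tested on simulated data. The genes of the set, the lists and the rules were chosen with earlier results of these data known.

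By rule, values in every library are given for called genes of the set, the 4 regulators and the 2 genes with the smallest p in each role group. Further genes (Hmgcs1, Fdps, Idi1, Ggps1, Sc4mol, Sc5d, Dhcr7 and Ebp) were added after their values were seen. Of the list of 40, called genes and the 3 with the smallest p in each comparison are named. Positions follow mm10, with starts counted from 1. Copies were searched in GENCODE M21 transcripts at 95% identity over at least 200 bases.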

Additional observations from a re-analysis of the deposited data

How the results depend on the processing

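Of 494 values per comparison (26 genes in 19 settings), 462 kept their direction and their side of the threshold for HFD_HDCA against HFD, 471 for HFD_HDCA against ND and 439 for HFD against ND. Uncalled values changed sign in 29, 17 and 53 cases, and 3, 6 and 2 values were newly called, in the same order of comparisons.

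The counts of called genes of the set moved as follows. HFD_HDCA against HFD had 0 called under every setting that kept all libraries (1.63% to 8.39% of all genes) and 0 to 3 when single libraries were left out (0.993% to 5.26% of all genes). HFD_HDCA against ND had 1 with DESeq2 (Insig2, 10.2% of all genes it tested) and 3 with only the 6 libraries compared (Fdps at -0.72, Hsd17b7 at 0.70 and Insig2, 8.1% of all genes). It had 1 without both HFD 1 and HFD_HDCA 1 (9.12% of all genes), and 0 to 1 when single libraries were left out (1.54% to 9.48% of all genes). HFD against ND had 1 without both of those libraries (Insig2 at 0.97, 4.54% of all genes) and 0 to 1 when single libraries were left out (0.25% to 1.77% of all genes). The cause was not tested.

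Of the 40 genes around the pathway, 2 were called for HFD_HDCA against HFD, with 6 by DESeq2 (8.39% of all genes it tested), 5 without both libraries (7.7% of all genes) and 2 to 6 when single libraries were left out (0.993% to 5.26% of all genes). For HFD_HDCA against ND 2 were called, with 4 in the 6 libraries compared (8.1% of all genes), 4 without both (9.12%) and 2 to 4 when single libraries were left out (1.54% to 9.48%). For HFD against ND 0 were called, with 1 without both (4.54% of all genes) and 0 to 1 when single libraries were left out (Lipa, without HFD 1; 0.25% to 1.77% of all genes over these fits).

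No pairing of the livers by replicate number was seen: deviations of same-numbered libraries correlated at -0.149 to 0.153, and 3 of 9 libraries were closest to their own number. Such correlations cannot exclude a cage or day shared by number. With the number as a block, 0 genes of the set were called in each comparison, and of the 40 genes 2, 3 and 0 in the same order of comparisons. The FPKM tables moved the median of all genes to -0.10 for HFD_HDCA against HFD and 0.11 for HFD against ND, and the median of the set to -0.15, against -0.06 by edgeR, and to -0.01, against 0.01. With 3 libraries a diet and a wide spread in HFD livers, the intervals of the most variable genes exclude only large changes.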

Other observations

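The acetyl-CoA genes upstream of the pathway varied between the HFD livers in the same order as the synthesis genes, with HFD 1 lowest and HFD 3 highest. Acly had 216, 286 and 716 CPM in HFD 1, 2 and 3, and Aacs had 29.0, 83.9 and 157 CPM. Acss2, encoding cytosolic acetyl-CoA synthetase, had 104, 76.4 and 71.8 CPM in HFD_HDCA livers, 86.1, 106 and 331 CPM in HFD livers and 154, 153 and 153 CPM in ND livers. Soat2, encoding the sterol O-acyltransferase of liver, which stores cholesterol as esters, had its highest library in HFD 1 instead, with 52.5, 47.5 and 46.1 CPM in HFD_HDCA livers, 60.7, 32.8 and 34.5 CPM in HFD livers and 39.5, 34.9 and 30.4 CPM in ND livers. These genes were chosen after their values were seen and are given as values without a test.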
